A study of Mus musculus with 6 samples.

Results

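The genes of intraflagellar transport (IFT) and of the BBSome were compared between the cochlear sensory epithelium of P9 Kir2.1-OE mice and that of littermate controls of the same age (genotypes labelled Kir2.1OE and WT). Members were taken by symbol, as every Ift or Bbs gene with a number together with Ttc8, Arl6, Wdr19, Wdr35, Ttc21b and Traf3ip1, which gave 28 of the 24411 gene symbols measured. They comprised 6 subunits of IFT-A, 12 of IFT-B, 7 of the BBSome, and 3 proteins that assemble or recruit the BBSome. All 28 passed the filter on low counts.

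The Kir2.1-OE mice, on a C57BL/6N background, carried Otof rtTA and a tetO transgene with Kir2.1 and tau-lacZ, each on a single allele. Controls were littermates on the same background heterozygous for Otof rtTA, and both groups drank water with doxycycline, so the driver and the drug were shared by both. The Otof promoter drives the transgene mainly in inner hair cells (IHCs), which are a small part of the cells in the dissected tissue. Poly(A) RNA was sequenced from 3 pools per group, each of 8 cochleae from 4 mice, and p-values measure the spread between these pools rather than between single animals.

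Cilia are built and maintained by IFT trains, which carry cargo along the microtubules of the axoneme. IFT-B moves with kinesin-2 motors towards the tip of the cilium, whereas IFT-A moves with dynein-2 back to the base and helps membrane proteins to enter. The BBSome rides on the trains, is brought to the membrane by the small GTPase Arl6, and removes membrane proteins such as receptors from the cilium. In the cochlea, hair cells carry a kinocilium, a true cilium beside the actin-based stereocilia that guides the polarity of the hair bundle and is lost around the onset of hearing. Supporting cells keep a primary cilium.

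Kcnj2, which encodes Kir2.1, had normalized counts of 3612, 3813 and 2213 in the Kir2.1-OE pools, here and below in the order of their replicate numbers, and of 236, 228 and 226 in the controls. It was 14.0-fold higher in Kir2.1-OE (log2 fold change 3.80, SE 0.199, edgeR adjusted p = 7.04e-05). The libraries held between 35430900 and 41205000 assigned reads. The IHC markers Otof, Slc17a8, Tbx2, Fgf8 and Shtn1 were all detected. Their summed normalized count was 10711 to 12281 in Kir2.1-OE and 8040 to 9094 in controls. Otof was the 1 of 5 called higher, beside 15.5% of all genes tested. In the fit with offsets, described below, 0 of the 5 were called, beside 5.9% of all genes called higher. The median log2 fold change of the 5 was then -0.07. Otof, with a longest transcript of 7419 nucleotides, was also at -0.07 (edgeR adjusted p = 0.608). In the whole tissue, fewer cells of a type and less RNA per cell cannot be told apart.

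RFX transcription factors are known regulators of cilium genes and bind X-box sites, in which a pair of half-sites face each other. To show what the members share before any expression value, their RefSeq promoters (mm10, 250 bases before to 50 after the start) were searched on both strands for the half-site GTTGCC and for a facing pair, GTNNCC and then GGNNAC with 0 to 3 bases between, which overlaps the half-site. A window was present for 25 of the 28 members. The pair was found in 6 of these 25 (24%), against 4.38% of 27025 genes with a window and 5.50% of the 11539 with a window that were also tested. The half-site, with or without a pair, was found in 10 of 25 members (40%), against 14.1% of all genes with a window.

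A selection of the pairs upstream of the start is printed 5′ to 3′ on the strand of the gene, with the match in capitals, to show the letters that several members share. They lie at chr3:36613487-36613520 (minus strand) for Bbs7, chr5:65199652-65199685 (plus strand) for Wdr19, chr5:136908077-136908110 and chr5:136908107-136908140 (plus strand) for the first and second pair of Ift22, and chr16:49699197-49699230 (plus strand) for Ift57.
Bbs7: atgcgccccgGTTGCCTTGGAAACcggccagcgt
Wdr19: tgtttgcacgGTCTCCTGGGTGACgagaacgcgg
Ift22, first: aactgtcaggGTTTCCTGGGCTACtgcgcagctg
Ift22, second: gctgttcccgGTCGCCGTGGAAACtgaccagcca
Ift57: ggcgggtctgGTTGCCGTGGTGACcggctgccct
The matches end 107 bases before the start in Bbs7, 20 in Wdr19, 49 and 19 in Ift22, and 73 in Ift57.

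Bbs1 and Bbs4 held a pair just after the start, at chr19:4906613-4906626 and chr9:59353472-59353485 (both minus strand).
Bbs1: GTTGCCAAGGCGAC
Bbs4: GTCGCCCGGGAAAC
By complex, a pair was present in 1 of 5 IFT-A, 2 of 10 IFT-B, 3 of 7 BBSome and 0 of 3 assembly and recruitment genes with a window. These matches describe the letters of the windows, and binding was not measured.

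Levels of the members covered a wide range. Per kilobase of the longest annotated transcript, the control mean ran from 62.5 normalized counts for Bbs12, a chaperonin-like protein of BBSome assembly, to 1176 for Ift20, the IFT-B subunit that is also found at the Golgi apparatus. Ift43, a small subunit of IFT-A, was close to Ift20 at 1153 per kilobase, and Ift52 and Ift27 of IFT-B followed at 892 and 751. The low end also held Ttc21b (63.7), Wdr19 (76.6) and Traf3ip1 (84.9). Summed over all members, the normalized count was 21705.5 to 23053.9 in Kir2.1-OE and 23734.9 to 24661.6 in controls.

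To ask whether these genes differed between Kir2.1-OE and control tissue, counts were tested with edgeR's quasi-likelihood test across the 15303 genes that passed the filter. A gene was called at an adjusted p under 0.05 with a fold change above 1.5. Of the 28 members, 0 were called higher and 1, Bbs5, was called lower, against 15.5% and 5.08% of all genes tested. With DESeq2 and with limma-voom the counts were again 0 and 1, and at an unadjusted p under 0.05 with the same fold they were also 0 and 1.

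Small differences were frequent. With the adjusted p alone, 7 members were higher and 13 lower, while 8 did not pass, against 27.3% of all genes higher and 23.5% lower. The 3 pools of one group did not overlap those of the other in 8 members that were higher and 13 that were lower, for which the shares over all genes were 31.7% and 29.9%. The median log2 fold change was -0.19 over the members and 0.01 over all genes tested. Below, a member rose or fell if it passed the adjusted p, whatever its fold.

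**Figure D1:**
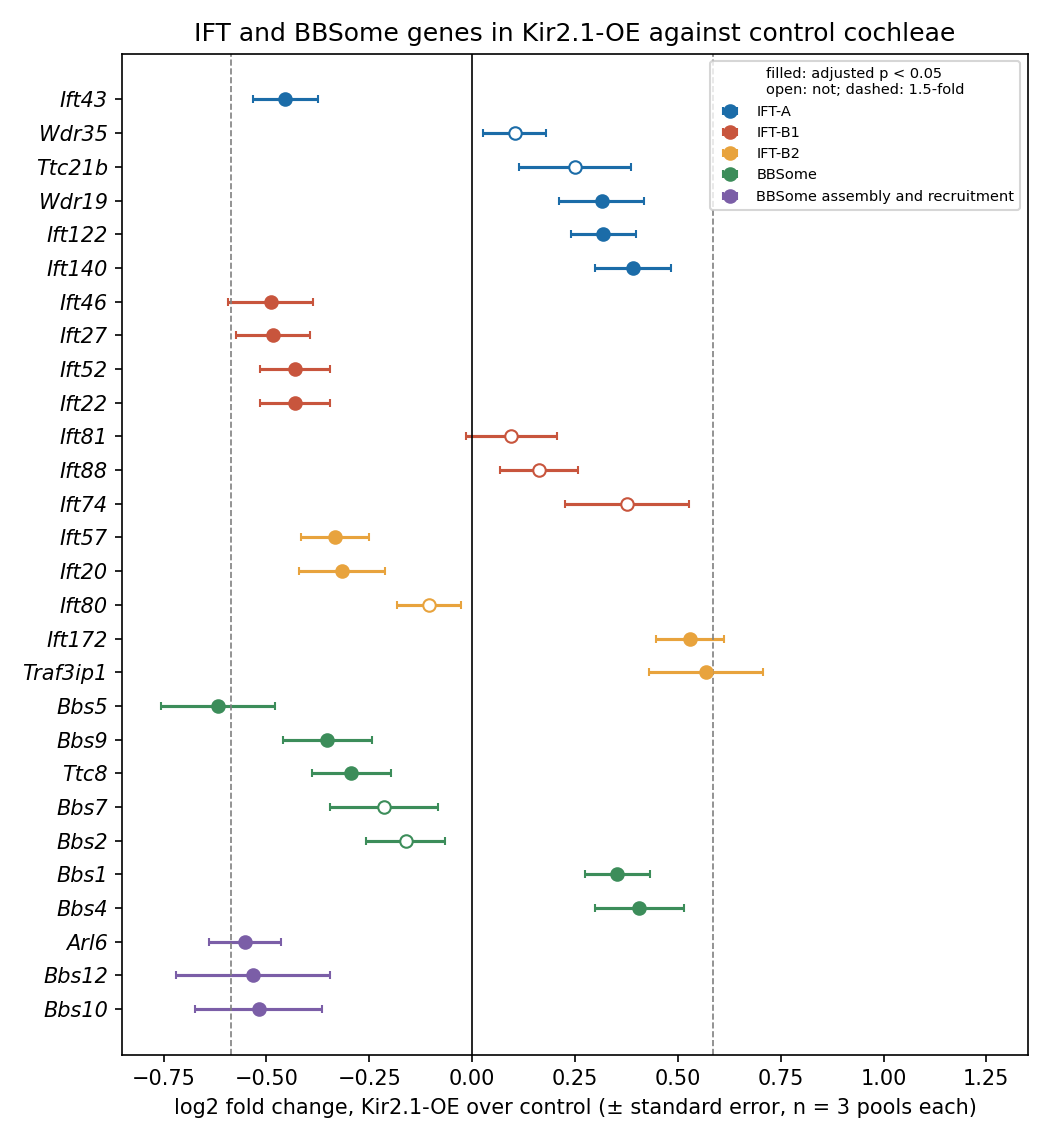
Log2 fold change of each member, Kir2.1-OE over control, with its standard error (horizontal axis, n = 3 pools per group), by complex. Filled points passed the adjusted p of 0.05, open points did not, and the dashed lines mark a 1.5-fold change. Bbs5 is the only filled point outside them.

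The counts by complex stand beside shares over all genes of 27.3% higher and 23.5% lower, and a difference between complexes was not tested. In IFT-A 3 of 6 subunits rose and 1 fell (median 0.28), in IFT-B 2 of 12 rose and 6 fell (median -0.21), in the BBSome 2 of 7 rose and 3 fell (median -0.21), and all 3 assembly and recruitment genes fell (median -0.53). Of the 5 positive IFT-A values, 4 were below 0 with offsets for GC content and the length of the longest transcript, as given next. Of these 4, Ift122 and Ift140 were each above 0 in 1 of 4 fits with offsets, Wdr19 in 2 and Wdr35 in 0.

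Across all genes the fold change moved with transcript length. Genes whose longest transcript had 1000 to 2000 nucleotides had a median log2 fold change of -0.30 (2506 genes), those of 2000 to 4000 had -0.06 (6258 genes), and those of 4000 to 8000 had 0.29 (4903 genes). The members in these ranges had medians of -0.52 (4 members), -0.29 (13 members) and 0.28 (10 members). Spearman's correlation of fold change and length was 0.623 over the 28 members and 0.557 over 15209 genes, given as a description, since genes share libraries. The members that rose had longest transcripts of 3474 to 6942 nucleotides and those that fell of 838 to 4169.

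**Figure D2:**
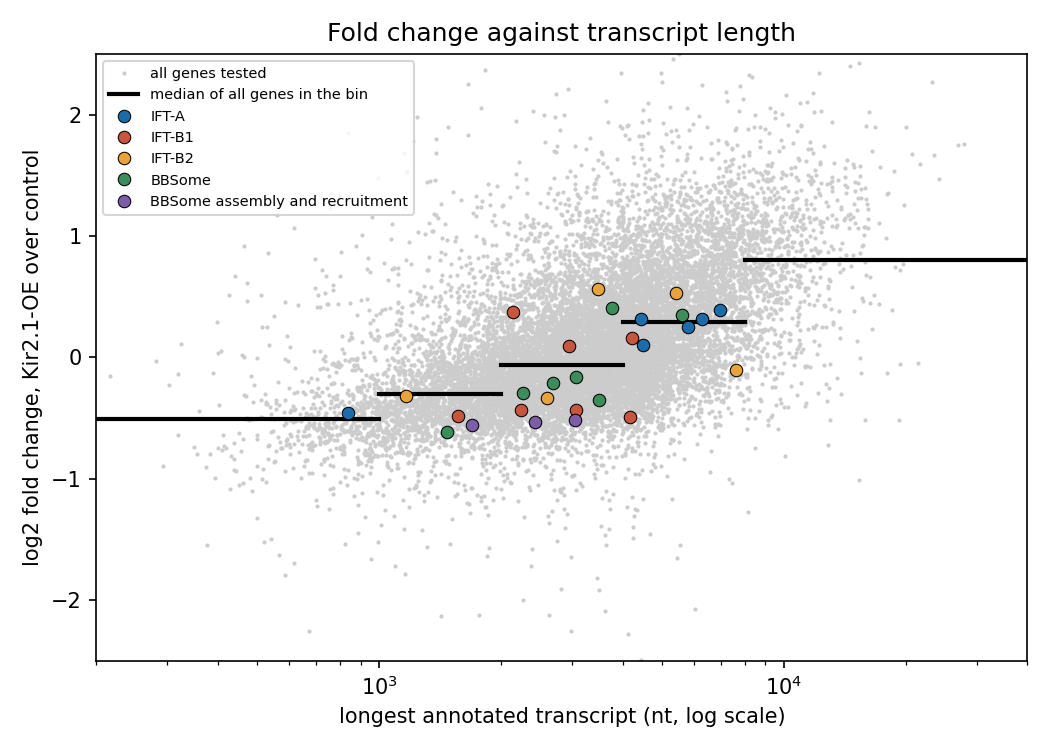
Log2 fold change, Kir2.1-OE over control (vertical axis), against the length of the longest transcript in nucleotides (horizontal log axis) for all genes tested with a length (grey) and the members (coloured by complex). 18 of 15209 genes lie outside the axes, and the members run from negative values at short lengths to positive values at long ones.

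The test was therefore repeated with offsets that remove the trend on length and GC content from each library. With these offsets 1 member was called higher, Ift74, against 5.9% of all genes, and 1 lower, Ift46, against 3.94%. With the adjusted p alone, 3 members were higher against 13.1% of all genes, and 6 were lower against 21.7%. The medians became -0.07 in IFT-A, -0.08 in IFT-B, -0.14 in the BBSome, -0.33 in the assembly and recruitment genes and -0.13 over all members, while the median of all genes was -0.06. Whether the length trend arose from the tissue or from the libraries was not tested, so members are given below with both values. Values with offsets use the longest transcript unless said otherwise. The range over 4 fits with offsets, where given, also covers a replicate block, the median transcript and transcripts that match a curated RefSeq entry.

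**Figure D3:**
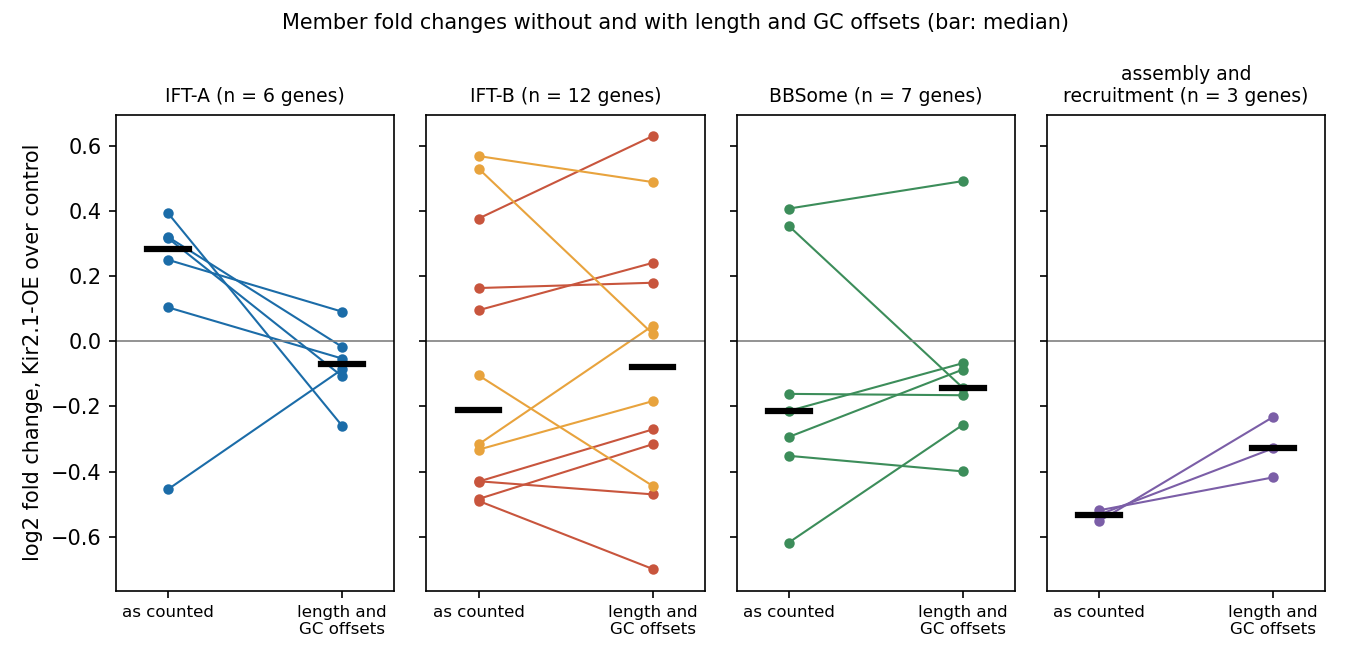
Log2 fold change of each member, Kir2.1-OE over control (vertical axis), as counted and with length and GC offsets (horizontal axis). A line joins the values of each member, with one panel per complex and bars at the medians. IFT-A members were lower with offsets except Ift43, and Ift46 and Ift74 end past 1.5-fold on opposite sides.

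Among the IFT-A genes, the longest transcripts showed the positive values. Ift140, a core subunit, had normalized counts of 1015, 1160.2 and 1023 in Kir2.1-OE and of 877, 809 and 752 in controls. Every Kir2.1-OE pool was above every control pool (1066 ± 81.6 against 813 ± 62.4, SD, n = 3), and it rose by a log2 fold change of 0.39 (SE 0.0923, edgeR adjusted p = 0.00645). With offsets the value was -0.26 (adjusted p = 0.0665), so its direction turned in this fit. Over the 4 fits with offsets Ift140 ran from -0.26 to 0.39.

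Ift122, another core subunit, had 1273, 1220.2 and 1152 in Kir2.1-OE and 1015, 987 and 919 in controls, also without overlap. It rose by 0.32 (SE 0.0788, edgeR adjusted p = 0.00815), and with offsets the difference was -0.02 (adjusted p = 0.875). The 4 fits with offsets gave Ift122 values of -0.018 to 0.18. Wdr19, also known as IFT144, had 621, 599 and 575 against 536, 465 and 442 and rose by 0.32 (adjusted p = 0.0286), a value of -0.11 with offsets (adjusted p = 0.439). It did not pass without Kir2.1-OE replicate 1 (0.28, adjusted p = 0.103), and was lost likewise without Kir2.1-OE replicate 2, control replicate 2 or control replicate 3, with adjusted p = 0.0896, 0.0773 and 0.101. Wdr19 ran from -0.11 to 0.20 over the 4 fits with offsets and passed in 0 of them.

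Ift43 alone fell in IFT-A. Its counts were 672, 743 and 700.3 in Kir2.1-OE and 958, 957 and 984 in controls, with the groups far apart (log2 fold change -0.45, SE 0.0795, edgeR adjusted p = 0.00148). Ift43 also had the shortest longest transcript of the members, 838 nucleotides, and with offsets the difference was -0.09 (adjusted p = 0.401). The 4 fits with offsets gave Ift43 values of -0.43 to -0.0007. Ttc21b, which encodes the peripheral subunit IFT139, had 487, 404 and 429 against 345, 434 and 329.8, and the groups overlapped (0.25, adjusted p = 0.152, and 0.09 with offsets). Without control replicate 2, the highest of the controls, Ttc21b passed at 0.38 (adjusted p = 0.0418). Wdr35, known as IFT121, had 1203, 1263 and 1136 against 1093, 1172 and 1088, which overlapped too (0.10, adjusted p = 0.288, and -0.05 with offsets).

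The core of IFT-B, IFT-B1, fell in 4 of its 7 genes, and these 4 stayed lower with offsets. Ift46 had 1600.2, 1981 and 2177 in Kir2.1-OE and 2673, 2700.4 and 2714 in controls. The control pools lay within a narrow range (2696 ± 20.9, SD, n = 3) and all Kir2.1-OE pools were below it (1919 ± 293). Its log2 fold change was -0.49 (SE 0.104, edgeR adjusted p = 0.00379) and -0.70 with offsets (adjusted p = 0.00195), past the fold of 1.5 in the second fit but not in the first.

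Ift22, a small GTPase-like subunit, had 629, 692 and 714 in Kir2.1-OE and 934, 876 and 931 in controls, with no overlap. It fell by 0.43 on the log2 scale (SE 0.0854, edgeR adjusted p = 0.00275), and with offsets by 0.47 (adjusted p = 0.00364). Ift22, with 2 RFX pairs upstream of its start, had an adjusted p under 0.05 in each of the 18 alternative fits.

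Ift27, a GTPase-like subunit that links IFT-B to BBSome export, had 754, 878 and 894 against 1204, 1217 and 1114. Its log2 fold change was -0.48 (SE 0.0898, edgeR adjusted p = 0.00196) and -0.32 with offsets (adjusted p = 0.0174). Ift52, a central scaffold of IFT-B1, had 1455, 1558 and 1449 against 2178, 1796 and 2043 and a log2 fold change of -0.43 (adjusted p = 0.00267), or -0.27 with offsets (adjusted p = 0.0329). In both genes all Kir2.1-OE pools were below all control pools. Ift27 ran from -0.46 to -0.15 over the 4 fits with offsets and passed the adjusted p in 2 of them. Ift52 ran from -0.37 to -0.27 and passed in 3 of the 4.

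Ift74 and Ift81, partners that bind tubulin as a cargo, did not fall. Ift74 had 603, 569 and 625 in Kir2.1-OE and 379, 579.7 and 423 in controls, where control replicate 2 lay within the Kir2.1-OE range. The difference was 0.38 (SE 0.150, edgeR adjusted p = 0.0614), 0.58 without control replicate 2 (adjusted p = 0.00406), and 0.63 with offsets (adjusted p = 0.0105). The fit without control replicate 2 was the only 1 of the 6 fits leaving out a pool in which Ift74 passed. Its values in those fits ran from 0.25 to 0.58, with edgeR adjusted p up to 0.182. Ift81 had 727, 718 and 813 against 691, 801 and 621, with overlapping groups (0.09, adjusted p = 0.502, and 0.24 with offsets). Ift88, needed for cilium assembly in most cell types, had 609.7, 589.6 and 573 against 521, 572 and 491. The Ift88 groups nearly touched, at 573 against 572, and the difference did not pass (0.16, adjusted p = 0.181, and 0.18 with offsets).

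The peripheral IFT-B2 genes were split. Traf3ip1, which encodes the microtubule-binding subunit IFT54, had 514, 405 and 394 in Kir2.1-OE and 286, 326 and 273 in controls, without overlap. It rose 1.48-fold (log2 fold change 0.57, SE 0.139, edgeR adjusted p = 0.00779), and by 0.49 with offsets (adjusted p = 0.0194). Leaving out Kir2.1-OE replicate 2, Kir2.1-OE replicate 3 or control replicate 2 took it past the fold of 1.5, at log2 fold changes of 0.60, 0.62 and 0.65. Without Kir2.1-OE replicate 1, its highest pool, Traf3ip1 was at 0.42 (edgeR adjusted p = 0.0378).

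Ift172, the largest IFT-B2 subunit, had 1404, 1562 and 1484 in Kir2.1-OE and 1054, 1088 and 941 in controls. The groups were well apart and it rose 1.44-fold (0.53, SE 0.0836, edgeR adjusted p = 8.93e-04). With offsets the difference was 0.02 (adjusted p = 0.856), and -0.0036 where lengths came from transcripts that match a curated RefSeq entry. The highest value over the 4 fits with offsets was 0.58, and Ift172 passed the adjusted p in 1 of them. Ift140 and Ift172 were the members that the offsets from the longest transcript moved furthest.

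Ift57 fell, with 703, 689 and 744 in Kir2.1-OE and 857, 939.5 and 893 in controls (log2 fold change -0.33, SE 0.082, edgeR adjusted p = 0.00807), and reached -0.18 with offsets (adjusted p = 0.0971). Ift20 had 956, 1114 and 1235 against 1287, 1333 and 1495 and fell by 0.32 (adjusted p = 0.0309), but its value with offsets was 0.05 (adjusted p = 0.719). Over the 4 fits with offsets Ift20 ran from -0.28 to 0.05. The Ift20 call was lost without Kir2.1-OE replicate 1, Kir2.1-OE replicate 2, control replicate 2 or control replicate 3, with adjusted p between 0.0509 and 0.112. Ift80 had 1520.1, 1749 and 1646 against 1850.0, 1686 and 1751, and the groups overlapped (-0.10, adjusted p = 0.285). With offsets Ift80, which has the longest of the members' transcripts at 7616 nucleotides, was lower by 0.44 on the log2 scale (adjusted p = 0.00554). Its transcript that matches a curated RefSeq entry has 4063 nucleotides. Ift80 ran from -0.45 to -0.12 over the 4 fits with offsets and passed the adjusted p in 2 of them.

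**Figure D4:**
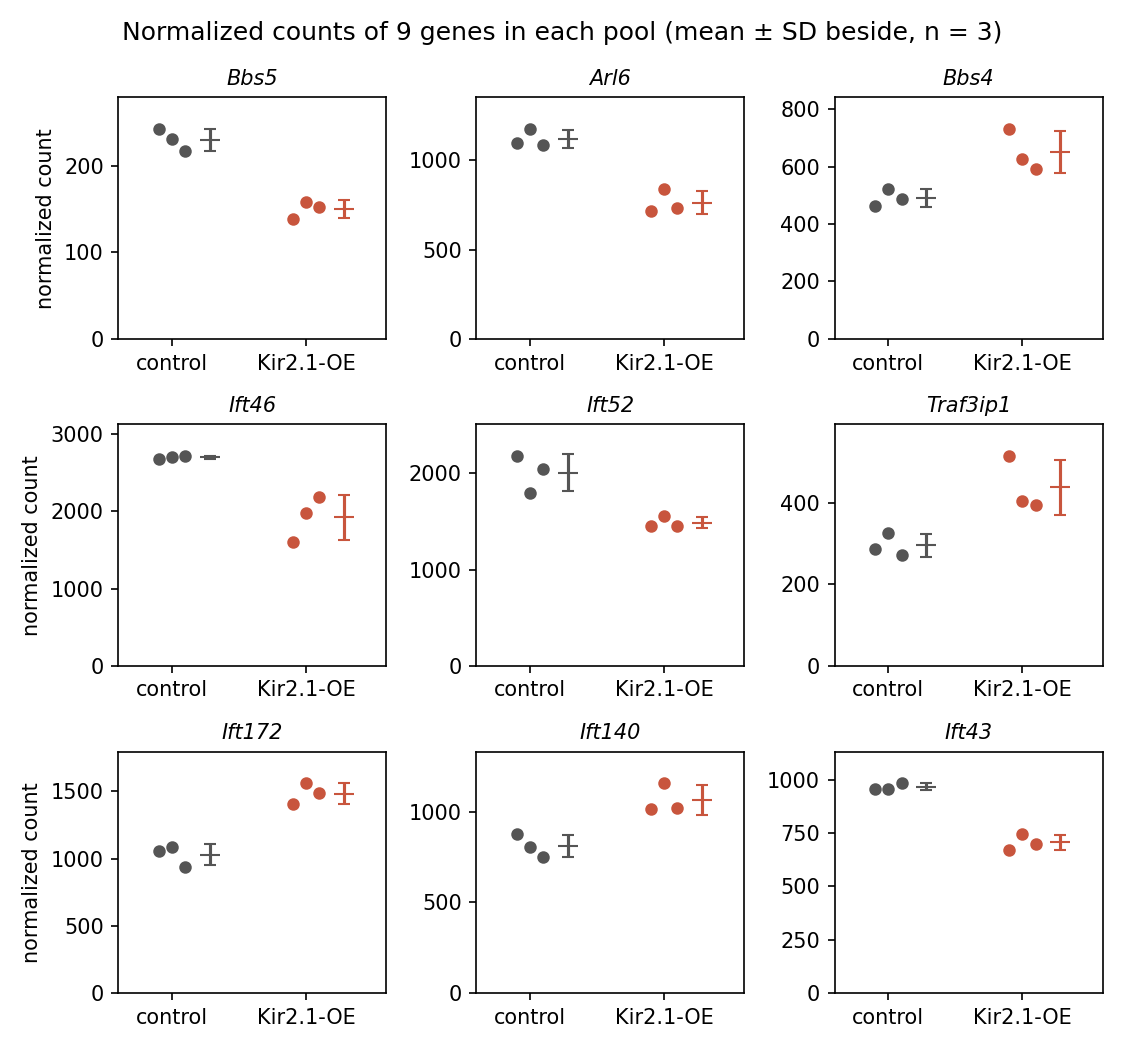
Normalized counts of 9 members, chosen after their values were seen, in each pool (points) with the mean and SD of the 3 pools per group, one panel per gene. The groups do not overlap in any of the 9 panels.

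Bbs5, a BBSome subunit that binds phosphoinositides and membrane cargo, was the single member called in the test without offsets. It had 139, 159 and 152 normalized counts in Kir2.1-OE and 243, 231 and 217 in controls. The control pools were all above the Kir2.1-OE pools, and Bbs5 was 1.53-fold lower (log2 fold change -0.62, SE 0.139, edgeR adjusted p = 0.00524). The fold was just past the threshold, and without Kir2.1-OE replicate 1 or control replicate 1 it was not reached (-0.58 in both, adjusted p = 0.0218 and 0.0180). With offsets the difference was -0.26 (adjusted p = 0.179). Over the 4 fits with offsets Bbs5 ran from -0.55 to -0.26. In its promoter Bbs5 held the half-site but not the facing pair.

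Bbs4 and Bbs1 rose, and both held the RFX pair just after the start. Bbs4 had 731, 628 and 591 in Kir2.1-OE and 462, 523 and 486 in controls, and rose by 0.41 on the log2 scale (SE 0.109, edgeR adjusted p = 0.0118). With offsets it was 0.49 (adjusted p = 0.0106), and without Kir2.1-OE replicate 1 it was 0.30 (adjusted p = 0.0601). Its exons share 194 annotated bases with those of Adpgk on the other strand, and reads there cannot be assigned without the strand. Bbs1 had 1009, 975 and 921 against 733, 761 and 781 and rose by 0.35 (adjusted p = 0.00508), but was at -0.14 with offsets (adjusted p = 0.188). Over the 4 fits with offsets Bbs1 ran from -0.17 to 0.21. The pools of the 2 groups did not overlap in either gene.

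Bbs9, a scaffold of the BBSome, had 605, 757 and 698 in Kir2.1-OE and 959, 853 and 817 in controls. It fell by 0.35 (SE 0.107, edgeR adjusted p = 0.0215), and by 0.40 with offsets (adjusted p = 0.0199), but did not pass without Kir2.1-OE replicate 1 (-0.28, adjusted p = 0.0696) or without control replicate 1 (-0.28, adjusted p = 0.0749). Ttc8, also called BBS8, had 651, 708 and 745 against 943, 798 and 838 and fell by 0.29 (adjusted p = 0.0292), or -0.09 with offsets (adjusted p = 0.471). It was lost without Kir2.1-OE replicate 1, control replicate 1 or control replicate 3, at adjusted p = 0.0849, 0.104 and 0.0537. Both genes kept the groups apart.

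In Bbs2 and Bbs7, which pair in the BBSome, the groups overlapped. Bbs2 had 528, 559 and 547 in Kir2.1-OE and 636, 638 and 553 in controls (log2 fold change -0.16, edgeR adjusted p = 0.184, and -0.17 with offsets). Bbs7 had 265, 259.8 and 331 against 340.1, 323 and 329.8 (-0.21, adjusted p = 0.198, and -0.07 with offsets), and only Kir2.1-OE replicate 3 reached the controls. Without that pool Bbs7 was at -0.35 (adjusted p = 0.0453).

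All 3 genes for BBSome assembly and recruitment fell. Arl6, the GTPase that brings the BBSome to the ciliary membrane, had 718, 837 and 733 in Kir2.1-OE and 1097, 1176 and 1084 in controls. Each Kir2.1-OE pool was well below each control pool (763 ± 64.9 against 1119 ± 49.7, SD, n = 3), a log2 fold change of -0.55 (SE 0.088, edgeR adjusted p = 9.41e-04). With offsets the difference was -0.23 (adjusted p = 0.0815). Over the 4 fits with offsets Arl6 ran from -0.50 to -0.23.

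Bbs10 and Bbs12 belong with Mkks to the chaperonin-like complex that assembles the BBSome. Bbs10 had 215, 189.9 and 201 in Kir2.1-OE and 344, 248 and 276 in controls (log2 fold change -0.52, SE 0.154, edgeR adjusted p = 0.0188), and without control replicate 1, its highest pool, it was at -0.38 (adjusted p = 0.0696). Bbs12 had 101, 88.9 and 126 against 167, 139 and 151 (-0.53, adjusted p = 0.0385). The Bbs12 groups lay close, 126 against 139, and the gene passed in 1 of the 6 fits that left out a pool, the fit without Kir2.1-OE replicate 3. In the other 5 its adjusted p was between 0.0513 and 0.107. With offsets the values were -0.42 for Bbs10 (adjusted p = 0.0558) and -0.33 for Bbs12 (adjusted p = 0.171).

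Of the 20 members that rose or fell, 13 passed the adjusted p with each pool left out in turn, 5 higher and 8 lower. The 4 members that passed in the test without offsets and in all 4 fits with offsets, always in one direction, were Bbs4 and Traf3ip1 (higher) and Ift22 and Ift46 (lower). By contrast, 8 members changed direction in at least 1 fit with offsets and none did in a fit without them. Shares of all genes under these criteria were not computed, so these counts cannot be set against them. In a single fit, 27.3% of all genes passed as higher and 23.5% as lower without offsets, and 13.1% and 21.7% with them. The exons of Arl6, Bbs12, Ift57 and Ift88 share 55, 32, 225 and 67 annotated bases with those of a gene on the other strand, where reads cannot be told apart without the strand.

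The subunits of each complex were also averaged within each pool, on a log2 scale relative to the mean of the 6 pools. IFT-A was at 0.07 ± 0.0442 in Kir2.1-OE and -0.09 ± 0.0686 in controls (SD, n = 3), and the pools did not overlap. The BBSome was at -0.08 ± 0.0375 against 0.05 ± 0.0463, again without overlap, whereas for IFT-B the pools overlapped (-0.05 ± 0.053 against 0.02 ± 0.0524). The assembly and recruitment genes were furthest apart, at -0.30 ± 0.0664 against 0.24 ± 0.11. Of all single genes tested, 31.7% did not overlap as higher and 29.9% as lower. A share for averages over several genes was not computed. These levels are without offsets, with which the medians were -0.07 in IFT-A, -0.08 in IFT-B, -0.14 in the BBSome and -0.33 in the assembly and recruitment genes.

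Other subunits of the same complexes, with proteins that assemble or regulate them, carry other names. All 10 genes listed (Hspb11, Cluap1, Ttc26, Ttc30a1, Ttc30a2, Ttc30b, Bbip1, Mkks, Lztfl1 and Rabl2) had lower values in every Kir2.1-OE pool than in every control pool. Over all genes tested that share was 29.9%, and these 10 were named after their values were seen. Of all genes, 23.5% passed the adjusted p as lower and 5.08% were called lower. The median was -0.43, 8 passed the adjusted p as lower and 2 were called, Hspb11 (log2 fold change -0.73, edgeR adjusted p = 0.00594) and Ttc30a1 (-0.62, adjusted p = 0.00978). Hspb11, the IFT-B1 subunit IFT25, had 146, 183 and 203 in Kir2.1-OE and 342, 262 and 279 in controls. Mkks, the partner of Bbs10 and Bbs12, had 894, 926 and 1187 against 1597, 1438 and 1438, a log2 fold change of -0.57 (adjusted p = 0.00259) and of -0.48 with offsets (adjusted p = 0.00569). With offsets the median of the 10 was -0.42, 5 passed as lower, against 21.7% of all genes, and none was called. Counts may be split between the near-identical Ttc30a1, Ttc30a2 and Ttc30b, so their separate values are uncertain.

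Kinesin-2 and dynein-2 are the motors that pull the trains. For this and the other cilium lists below, 15.5% of all genes tested were called higher and 5.08% lower. At the adjusted p alone these shares were 27.3% and 23.5%, and with offsets 5.9% were called higher and 3.94% lower. Of the 5 kinesin-2 genes, 4 rose and 1 of them was called higher, Kif3c (0.63, edgeR adjusted p = 0.00167). Kif3a, the common motor subunit, had 3134, 2626 and 3180 in Kir2.1-OE and 1898, 2386 and 1765 in controls (0.56, adjusted p = 0.00388), and with offsets it was called higher (0.59, adjusted p = 0.00423), while Kif3c was at -0.01. Kif3b and the adaptor Kifap3 rose by 0.38 and 0.24, but with offsets Kif3b was at -0.038 (adjusted p = 0.709) and Kifap3 at 0.21 (adjusted p = 0.0369), so that 2 of the 5 passed as higher. Kif17 did not pass (0.55, adjusted p = 0.265).

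Dynein-2 was split by subunit. Dync2h1, the heavy chain, had 923, 1036 and 895 against 512, 585 and 491 and was called higher (0.85, edgeR adjusted p = 2.62e-04), as was the intermediate chain gene Wdr60 (0.63, adjusted p = 0.0118). Called lower were the other intermediate chain gene Wdr34 (-0.61, adjusted p = 0.00299) and the light chain gene Tctex1d2 (-0.75, adjusted p = 0.00129), and Dync2li1 fell without being called (-0.56, adjusted p = 0.00311). None of the 5 was called with offsets, where Dync2h1 was at 0.10 and Wdr60 at 0.57, and 1 passed the adjusted p as higher and 2 as lower.

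At the transition zone, the gate at the base of the cilium, 2 of 17 genes were called higher and 2 lower (median -0.04). Cep290, which links microtubules to the membrane there, had 251, 155 and 171 normalized counts in Kir2.1-OE and 30.1, 54.5 and 29.5 in controls (2.33, SE 0.296, edgeR adjusted p = 3.3e-04), and was the only gene of the list called with offsets (2.02, adjusted p = 0.00134). The others were Cc2d2a, called higher at 0.81, and B9d1 and Tmem216, called lower at -0.86 and -0.80. A facing RFX pair was found in 9 of 15 of these genes with a window, the highest share of the lists examined.

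Of 11 genes of the ciliary membrane and Hedgehog signalling, edgeR called 5 higher and 0 lower (median 0.40), and at an unadjusted p 7 were higher and 2 lower. The list's median transcript had 4522 nucleotides, and of all genes with 4000 to 8000 nucleotides 26.3% were called higher. The 5 called were Gpr161 (1.31), a receptor that the BBSome and IFT-A move, and the Hedgehog receptor Ptch1 (0.60), with the transcription factors Gli2 (0.83) and Gli3 (1.01) and the kinesin Kif7 (0.88). None of the 5 was called with offsets, when the median was -0.08 and Smo, the Hedgehog transducer, was called lower (-0.66, edgeR adjusted p = 0.00154). Among 7 RFX and FOXJ1 genes, 3 were called higher, Rfx2 (0.66), Rfx4 (1.17) and Rfx7 (0.63), and none with offsets. Foxj1, the regulator of motile cilia, had 185, 105 and 186 against 145, 129 and 104 and did not pass (0.33, edgeR adjusted p = 0.286).

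Members with and without the RFX pair did not separate by direction. Of the 6 with a pair, 3 had positive and 3 negative log2 fold changes (median 0.05), and of the 19 without a pair but with a window, 7 were positive and 12 negative (median -0.32).

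Markers of other cells in the tissue moved beside these results. Of the 12 markers of multiciliated cells, 10 were in the files and 7 could be tested, while Mcidas, Dnah5 and Rsph4a had means under 10 normalized counts in both groups. Of the 7, edgeR called 0 higher and 0 lower, 1 had an unadjusted p under 0.05, and the summed level of the list was 395 to 441 in Kir2.1-OE and 313 to 393 in controls. With offsets 1 of the 7 was called higher, Ccdc39 (log2 fold change 1.00, edgeR adjusted p = 0.0461). Markers shared by hair cells summed to 40724 to 50243 against 30794 to 32957, with 3 of 7 called higher. Myo6 and Calb2 had the highest means of this list (16535 and 16735 in Kir2.1-OE), while Pou4f3 (0.05), Pvalb (-0.02) and Gfi1 (-0.25) did not pass. Supporting cell markers summed to 69684 to 79740 against 66388 to 78011, with 2 of 8 called higher. Glial markers summed to 375544 to 493409 against 266232 to 339767, with 3 of 7 called higher. With offsets 1 shared hair cell, 1 supporting cell and 3 glial markers were called higher. Of all genes 15.5% were called higher, and 5.9% with offsets. No marker of these lists was at 0 in all pools, and their part in the members' values was not tested.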

How the data were processed

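RNA-seq was performed on 6 libraries, 3 Kir2.1-OE and 3 control, grouped by genotype as labelled. The authors enriched poly(A) RNA, mapped paired reads to mm10 with the nf-core RNA pipeline and deposited expected counts per gene from Salmon, estimates that need not be whole (6.95% were not). Versions, annotation and strand setting are not given in the sources used here. The values had no length or depth normalization. A count floor of 3 reads was at most 8.47e-06% of a library. Standard errors came from the edgeR fit described next and include the spread between pools, and each SD is between pools.

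Counts were rounded. The test was edgeR 4.0.16 (R 4.3.3) after TMM scaling and filterByExpr (15303 genes kept), by quasi-likelihood with Benjamini-Hochberg adjustment over all genes, and genes were called at adjusted p under 0.05 and fold above 1.5. The smallest exact permutation p for 1 gene with 3 pools against 3 is 0.1. Within each group, libraries differed by a chi-square of 16.2 to 32.3 per degree of freedom, so none was a repeat. Transcript length and GC came from GENCODE vM21 (mm10), which matched 23376 symbols directly and 693 by an older symbol, while 342 were not matched. Offsets came from loess trends (span 0.4) of each library on log length of the longest transcript and GC content, and the steps were tested on simulated data. Overlap in exons with other genes was read from the same annotation.

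Named were all members, Kcnj2, and genes of the lists of cilium genes that were called or whose list has at most 5 genes. Mkks, Smo, Foxj1 and the list of subunits named otherwise were named after their values were seen. One promoter match is not reported here. Members and lists were chosen with earlier results of these data known. Cell type lists were macrophage, erythrocyte, cartilage, mesenchyme, glia, spiral ganglion neuron, supporting cell, multiciliated cell and 3 kinds of hair cell (inner, outer, shared). Alternatives were RLE, upper quartile and library size scaling, no filter or at least 10 counts in every library, DESeq2 1.42.0, limma-voom (limma 3.58.1), a replicate block, the offsets with and without it, each library left out, no fold threshold and glmTreat. After seeing the data, offsets from the median transcript, or from transcripts that match a curated RefSeq entry, were added.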

Additional observations from a re-analysis of the deposited data

How the results depend on the processing

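Scaling by RLE or library size, no filter, a minimum of 10 counts, DESeq2, limma-voom and the replicate block each left 0 members called higher and 1 lower, with medians on the same side of 0. At the adjusted p alone, Bbs9, Bbs12, Ttc8 and Wdr19 did not pass with the replicate block (adjusted p = 0.0571, 0.0702, 0.0780 and 0.0528). The replicate numbers did not pair the samples: deviations of same-numbered pools correlated at -0.11, -0.23 and -0.21, and no sample correlated best with its own number. Upper quartile scaling shifted the median of all genes to -0.08. It gave 4 members lower, 7 genes of the context lists (other cilium genes) higher, and medians of -0.28 (members), 0.19 (IFT-A), -0.30 (IFT-B) and -0.30 (BBSome), and Wdr19 did not pass the adjusted p (0.0986).

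Length and GC offsets gave 1 member higher, 2 context genes higher and 1 lower, and medians of -0.13, -0.070, -0.081 and -0.14. With the replicate block and the offsets these were 1, 3 and 1, and -0.12, -0.071, -0.081 and -0.14. Log2 fold changes that turned with the offsets, without and with the replicate block, were Bbs1 (-0.14, -0.14), Ift122 (-0.018, -0.017), Ift140 (-0.26, -0.26), Ift20 (0.047, 0.046), Wdr19 (-0.11, -0.10) and Wdr35 (-0.053, -0.055). Offsets from the median transcript gave 2 members lower (Bbs10 and Bbs12, and neither Ift46 at -0.45 nor Ift74 at 0.35), 8 context genes higher and an IFT-A median of 0.043, with Ttc21b (-0.11) and Wdr35 (-0.093) turned. Offsets from transcripts that match a curated RefSeq entry gave 1 member higher, 1 context gene higher and 2 lower, medians of -0.13, -0.0039, -0.063 and -0.17, and turned Bbs1 (-0.17), Ift122 (-0.0070), Ift140 (-0.17), Ift172 (-0.0036), Ift20 (0.040) and Wdr35 (-0.10). The cause was not tested.

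Leaving out each library gave 0 to 1 members higher and 0 to 3 lower (0 lower without Kir2.1-OE replicate 1 or control replicate 1, 3 without Kir2.1-OE replicate 3), 10 to 15 context genes higher and 4 to 9 lower, and medians of -0.26 to -0.16 (members), 0.22 to 0.31 (IFT-A), -0.26 to -0.15 (IFT-B) and -0.35 to -0.18 (BBSome). Kcnj2 stayed between 3.64 and 4.00. Without a fold threshold 7 members were higher and 13 lower, with 22 and 18 context genes. With glmTreat against 1.5-fold 0 members were called in either direction, with 3 context genes higher and 0 lower. With 3 pools a group, folds near 1.5, such as those of Bbs5 and Traf3ip1, cannot be placed firmly on one side of it.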

Other observations

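Markers not given above were counted in the same test. Outer hair cell markers summed to 22345 to 27495 normalized counts in Kir2.1-OE and 24449 to 30829 in controls, with 3 of 5 called higher and, with offsets, 1 of 5. Of 7 spiral ganglion neuron markers 3 were called higher and 1 lower, of 6 mesenchyme and fibrocyte markers 2 higher and 1 lower, and of the 4 cartilage markers tested 2 higher. With offsets these were 3 higher and 1 lower, 1 higher and 0 lower, and 1 higher. Over all genes tested 15.5% were called higher and 5.08% lower, and with offsets 5.9% and 3.94%. Erythrocyte markers summed to 10855 to 13789 against 17918 to 44665, with 3 of 5 called lower and, with offsets, 1 of 5. Their median longest transcript had 699 nucleotides, and of all genes under 1000 nucleotides 30.8% were called lower without offsets. Of 5 macrophage markers 0 were called by edgeR, while 2 were higher and 1 lower at an unadjusted p under 0.05.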
